A study of Mus musculus with 12 samples.

Results

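The 10 genes described here encode the parts of the relay that carries a hormone signal across the liver cell membrane: the glucagon receptor (Gcgr), 7 G protein alpha subunits (Gnas, Gnai2, Gnai3, Gnaq, Gna11, Gna12 and Gna13) and 2 beta subunits (Gnb1 and Gnb2). They were chosen by gene symbol from the 55536 genes of the deposited tables, and their values were followed in every sample. Total RNA had been sequenced from mouse liver in 12 samples that form 3 groups of 4. The shG0s2 group carried a short hairpin RNA against G0s2, whose protein inhibits adipose triglyceride lipase. The shRgs16 group carried a hairpin against Rgs16, whose protein speeds the hydrolysis of GTP on Gi and Gq alpha subunits. The shLacZ control group carried a hairpin against a bacterial gene that mice lack. Every animal was a wild-type mouse of the C57BL/6 strain (C57BL/6J in the growth protocol), aged 8 weeks and kept in 12 h of light and 12 h of dark. All 3 groups received adenovirus through the tail vein, so the control livers were infected too. Livers were collected 12 days after injection, at zeitgeber time 12, when food had been absent for 6 h. The labels do not state that replicates were separate animals, and the p-values refer to the variation among these samples alone.

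A heterotrimeric G protein is held at the inner face of the membrane as an alpha subunit bound to a beta-gamma pair. A receptor occupied by its hormone makes the alpha subunit exchange GDP for GTP, and alpha and beta-gamma then act on separate targets until the alpha subunit hydrolyses its GTP. In hepatocytes glucagon acts through Gcgr and the stimulatory alpha subunit encoded by Gnas, which raises cyclic AMP. Inhibitory alpha subunits (Gnai2, Gnai3) oppose adenylyl cyclase, Gq-type subunits (Gnaq, Gna11) act on phospholipase C beta, and Gna12 and Gna13 make up the G12/13 class. RGS proteins such as Rgs16 shorten the GTP-bound state.

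The 3′ end of the coding sequence of an alpha subunit encodes the tail that contacts the receptor, and paralogues with near-identical tails could exchange reads. The last 48 coding bases are therefore shown for each of the 7 alpha subunits, 5′ to 3′ on the coding strand and without the stop codon, from GENCODE annotation of the mouse genome GRCm38. Capitals mark the bases that differ between the members of a pair (Gnai2 with Gnai3, Gnaq with Gna11, Gna12 with Gna13), and Gnas has no pair here.
Gnas: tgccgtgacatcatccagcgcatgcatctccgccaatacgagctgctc
Gnai2: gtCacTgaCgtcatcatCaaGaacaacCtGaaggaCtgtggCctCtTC
Gnai3: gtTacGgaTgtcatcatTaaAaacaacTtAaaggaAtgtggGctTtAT
Gnaq: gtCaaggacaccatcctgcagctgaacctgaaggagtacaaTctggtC
Gna11: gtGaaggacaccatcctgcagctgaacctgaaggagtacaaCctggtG
Gna12: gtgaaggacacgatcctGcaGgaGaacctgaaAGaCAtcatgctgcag
Gna13: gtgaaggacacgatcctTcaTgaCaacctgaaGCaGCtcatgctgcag
The Gnas bases lie in exon 13 of 13 at chr2:174346338-174346385 on the plus strand. Those of Gnai2 lie in exon 8 of 9 at chr9:107615638-107615685, and those of Gnai3 in exon 8 of 9 at chr3:108109425-108109472, both on the minus strand. Gnaq ends its coding sequence in exon 7 of 7 at chr19:16383344-16383391 (plus strand) and Gna11 in exon 7 of 7 at chr10:81530798-81530845 (minus strand). The Gna12 bases are in exon 4 of 4 at chr5:140760552-140760599 (minus strand), and the Gna13 bases are in exon 4 of 4 at chr11:109396436-109396483 (plus strand). The Gnaq and Gna11 tails differ at 3 of 48 bases, those of Gna12 and Gna13 at 7, and those of Gnai2 and Gnai3 at 12. Over whole transcripts the 10 genes shared 0 stretches of 50 bases with each other. Stretches shared with other genes made up 1.84% of Gnai2, 1.52% of Gnb2 (all with Epo), 0.173% of Gna13 and 0.163% of Gnaq, and none of the other 6.

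Counts per sample summed to 18458222 to 26031003 in shG0s2, 24855297 to 27170419 in shRgs16 and 25636445 to 26472189 in shLacZ. The targeted genes fell under their own hairpins. G0s2 was at 37.2 ± 10.1 CPM (counts relative to the TMM-scaled library size) in shG0s2, against 73.6 ± 9.79 CPM in shLacZ (SD, n = 4 each), and Rgs16 at 26.2 ± 10.9 CPM in shRgs16, against 149 ± 46.2 CPM in shLacZ. The log2 fold changes were −0.98 for G0s2 (edgeR adjusted p = 0.00301) and −2.51 for Rgs16 (edgeR adjusted p = 0.00172), and scaled by library size alone the G0s2 difference of −0.48 did not pass (edgeR adjusted p = 0.0551). In TPM, G0s2 held 60.4 to 124.9 in shG0s2, against 101 to 134.8 in shLacZ, so the groups overlapped on that scale. Rgs16 was also lower in shG0s2, at 59.0 ± 11.4 CPM (log2 fold change −1.33, SE 0.244, edgeR adjusted p = 0.00236). Genes of the major urinary protein family took 1.15% of counts in shG0s2 and 2.27% in shRgs16, against 10.5% in shLacZ. The choice of library scaling therefore matters for every comparison with shLacZ. TMM scaling, used throughout unless another is named, centres the bulk of genes on no change. With library size alone the median of all genes tested was 0.50 (shG0s2) and 0.31 (shRgs16) above shLacZ on the log2 scale.

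Per unit of transcript length, Gnas was the most abundant of the 10 transcripts in all 3 groups and Gnaq the least. TPM, transcript abundance corrected for length and scaled to a fixed total, allows this ranking of genes. Gnas stood at 420 ± 31.6 TPM in shG0s2, 280 ± 13.8 TPM in shRgs16 and 219 ± 18.5 TPM in shLacZ (SD, n = 4 each). Gnaq stood at 10.8 ± 1.69, 7.55 ± 0.700 and 5.08 ± 0.575 TPM in the same groups. In shLacZ the order below Gnas was Gcgr (106 TPM), Gnb2 (85.5), Gnai2 (55.4), Gna12 (46.3), Gnai3 (32.0), Gna11 (21.7), Gnb1 (21.5) and Gna13 (10.05 TPM). Neighbouring ranges overlapped there for Gnai2 with Gna12 and for Gna11 with Gnb1, and for no other neighbours. The ranking differed in the knockdowns. Gcgr took rank 4 in shG0s2 (119 TPM) and in shRgs16 (82.0 TPM), against rank 2 in shLacZ. Gnb1 took rank 5 in shG0s2 (76.7 TPM) and in shRgs16 (47.6 TPM), against rank 8 in shLacZ. In shG0s2 the ranges of Gnb2 and Gnai2 overlapped (141.1 and 140.8 TPM), and in shRgs16 those of Gnb1, Gnai3 and Gna12 did (47.6, 47.2 and 45.4 TPM).

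**Figure D1:**
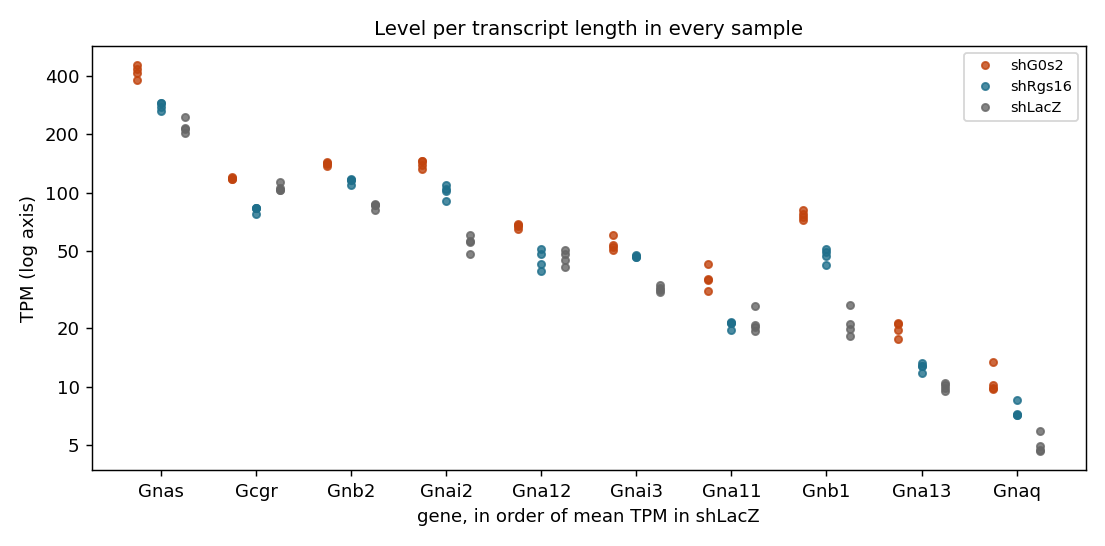
TPM (log axis) of the 10 genes in every sample, 1 point per sample, with shG0s2 left of shRgs16 and shLacZ. Gnas is highest and Gnaq lowest in each group, and Gnb1 moves ahead of Gna11 in both knockdowns.

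All 10 genes passed the filter on low counts in all 3 comparisons. In shG0s2, 5 of the 10 were called higher than in shLacZ (Gnas, Gnai2, Gnaq, Gna13 and Gnb1) and 1 lower (Gcgr), where 60.5% of the 15592 genes tested were called, 31.3% higher and 29.2% lower. In shRgs16, 2 were higher (Gnai2 and Gnb1) and 3 lower (Gcgr, Gna11 and Gna12), where 49.1% of 15324 genes were called, 24.6% higher and 24.5% lower. A call is an adjusted p under 0.05 in edgeR's quasi-likelihood test. Calls were common among all genes, so these counts alone do not set the 10 genes apart. Scaled by library size alone, 9 of the 10 were higher and 0 lower in shG0s2, where 64.5% of all genes were higher and 8.01% lower. In shRgs16, 7 were then higher and 2 lower, where 50.1% of all genes were higher and 8.35% lower. Under TMM Gnb1 and Gnai2 were higher and Gcgr was lower in both knockdowns, and both comparisons use the same 4 shLacZ samples.

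**Figure D2:**
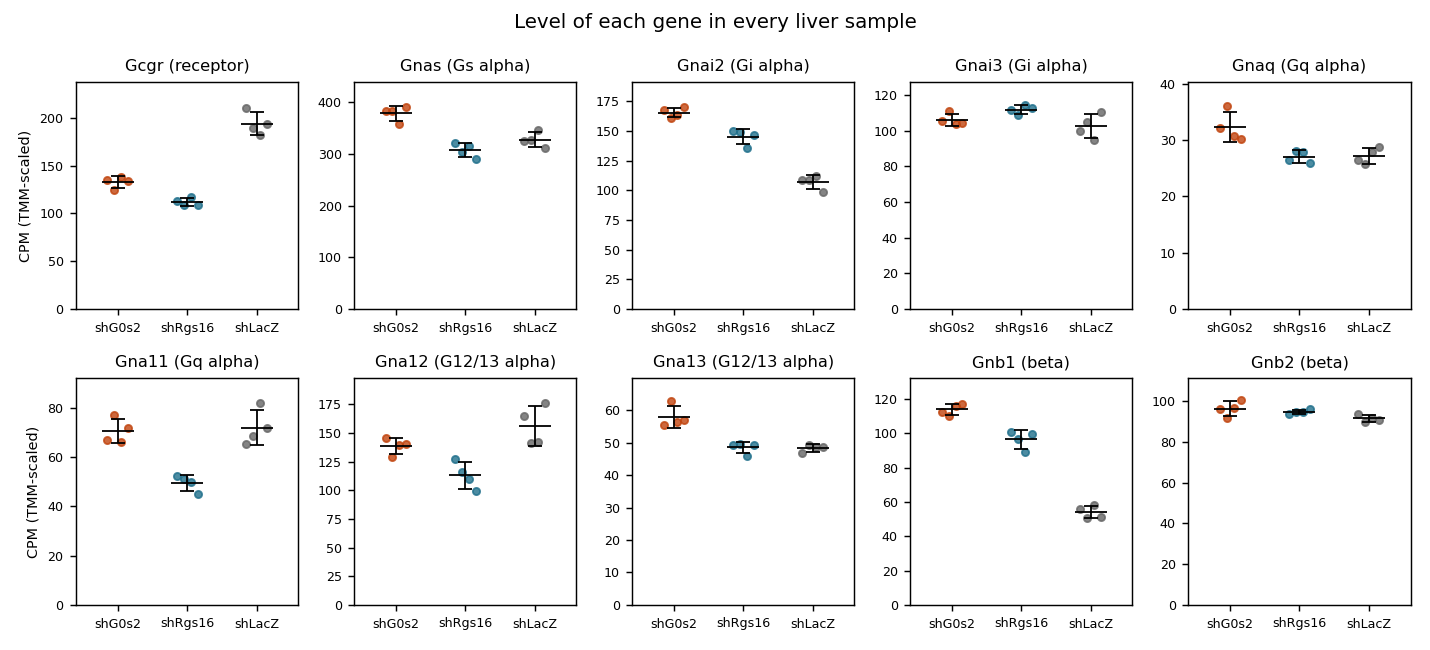
TMM-scaled CPM of each gene in every sample (points), with the group mean and SD (black bars), shG0s2 and shRgs16 left of shLacZ. The Gnb1 and Gnai2 points of both knockdowns lie above all shLacZ points, and the Gcgr points of both lie below them under this scaling, which for shG0s2 is lost with library size alone.

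Gcgr, the receptor for glucagon, was lower in both knockdowns. Its level was 135, 125, 138 and 133 CPM in the shG0s2 samples and 113, 109, 117 and 108 CPM in the shRgs16 samples, against 210.3, 189.6, 182 and 194 CPM in the shLacZ samples. No knockdown sample reached the lowest control, and the shRgs16 samples were all below the shG0s2 samples. The fold change over shLacZ was 0.691 in shG0s2 (log2 −0.53, SE 0.0636, edgeR adjusted p = 1.71e-05) and 0.576 in shRgs16 (log2 −0.79, SE 0.0593, edgeR adjusted p = 1.77e-06). The fall in shG0s2 depends on scaling. With library size alone it was −0.04 (edgeR adjusted p = 0.51), and on log2(TPM + 1) the sign turned, to 0.16 (limma adjusted p = 0.0216). The fall in shRgs16 was called under all 18 alternatives, with log2 values of −0.83 to −0.37. Hepatocyte markers were mostly lower too, apart from the albumin gene Alb, which was not called in shG0s2 (0.08) and was higher in shRgs16 (0.33). Of 15 hepatocyte markers tested, 0 were higher and 14 lower in shG0s2 (median log2 fold change −0.96), and 2 were higher and 10 lower in shRgs16 (median −0.39), where the median of all genes was 0.01 in both. Over all genes 31.3% were higher and 29.2% lower in shG0s2, and 24.6% and 24.5% in shRgs16. With library size alone the marker counts were 1 higher and 11 lower in shG0s2, and 5 higher and 4 lower in shRgs16. All genes then had 64.5% higher and 8.01% lower in shG0s2, and 50.1% and 8.35% in shRgs16. The hepatocyte markers summed to 39374 to 63066 CPM in shG0s2 and 67389 to 73451 CPM in shRgs16, against 63455 to 77837 CPM in shLacZ, and no marker was at 0. In whole liver, fewer hepatocytes and less Gcgr RNA per hepatocyte cannot be told apart, and the part of hepatocyte share in the Gcgr values was not tested.

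Gnas, the stimulatory subunit that Gcgr uses, was called higher in shG0s2. Its samples held 357 to 391 CPM in shG0s2 and 291 to 322 CPM in shRgs16, against 311 to 346 CPM in shLacZ. Only the shG0s2 range lay wholly above that of shLacZ (log2 fold change 0.22, SE 0.0622, edgeR adjusted p = 0.00854). In shRgs16 the difference was −0.09 (SE 0.0587, edgeR adjusted p = 0.236), and Gnas was called higher there with library size alone (0.21, edgeR adjusted p = 0.0202).

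Gnai2, an inhibitory alpha subunit with high levels in blood and immune cells as well as in liver, was higher in both knockdowns. It was at 168, 161, 164 and 170.0 CPM in the shG0s2 samples and 149.7, 149.2, 136 and 146 CPM in the shRgs16 samples, against 109.0, 108.5, 112 and 98.3 CPM in the shLacZ samples. Both knockdown groups lay above the control group with no overlap. The log2 fold change was 0.64 in shG0s2 (SE 0.0573, edgeR adjusted p = 1.75e-06) and 0.44 in shRgs16 (SE 0.0584, edgeR adjusted p = 8.3e-05), and both calls held in all 18 alternatives. Its paralogue Gnai3 did not pass under TMM in either (log2 0.06 and 0.12), and was called higher in both with library size alone (0.55, edgeR adjusted p = 6.94e-06, and 0.43, edgeR adjusted p = 2.3e-05). Gnai3 ranged over 104 to 111 CPM in shG0s2 and 109 to 115 CPM in shRgs16, against 94.9 to 110.4 CPM in shLacZ. It was also called higher in both without the Mup genes in the library size (0.41 and 0.30) and on log2(TPM + 1) (0.74 and 0.55), and in shRgs16 under TMM when shLacZ replicate 4 was left out (0.16).

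Gnaq, a Gq-type subunit, was called higher in shG0s2, at 30.2 to 36.1 CPM against 25.7 to 28.8 CPM in shLacZ (log2 0.25, SE 0.0731, edgeR adjusted p = 0.00981). In shRgs16 it held 25.8 to 28.1 CPM, inside the spread of shLacZ, and was called higher there with library size alone (log2 0.29, edgeR adjusted p = 0.00514). Its paralogue Gna11 was at 67.1, 77.2, 66.3 and 71.9 CPM in the shG0s2 samples and 52.3, 51.1, 49.7 and 45.0 CPM in the shRgs16 samples, against 65.3, 68.5, 81.9 and 71.9 CPM in the shLacZ samples. The shRgs16 samples were all below the other 8, while shG0s2 overlapped shLacZ. With library size alone Gna11 was called higher in shG0s2 (log2 0.47, edgeR adjusted p = 0.00114). The log2 fold change of Gna11 in shRgs16 was −0.54 (SE 0.0760, edgeR adjusted p = 0.000125). That call was lost on log2(TPM + 1), where the difference was −0.04 (limma adjusted p = 0.739).

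Gna12, a G12/13 subunit, held 129 to 145 CPM in shG0s2 and 99.4 to 127.2 CPM in shRgs16, against 141 to 176 CPM in shLacZ. The shRgs16 samples lay below all controls (log2 −0.47, SE 0.0914, edgeR adjusted p = 0.00139), a call lost with library size alone (−0.16, edgeR adjusted p = 0.131). In shG0s2 the difference of −0.16 did not pass (edgeR adjusted p = 0.0991), and Gna12 was called higher there with library size alone (0.33, edgeR adjusted p = 0.000848). Gna13 held 55.4 to 62.8 CPM in shG0s2 and 46.0 to 49.8 CPM in shRgs16, against 46.8 to 49.4 CPM in shLacZ. It was called higher in shG0s2 (log2 0.27, SE 0.0577, edgeR adjusted p = 0.00154), and in shRgs16 the log2 difference was 0.00 under TMM. Gna13 was called higher in shRgs16 too with library size alone (0.30, edgeR adjusted p = 0.00174), as it was without the Mup genes in the library size (0.18) and on log2(TPM + 1) (0.31). Gna12 lies on the strand opposite to the neighbouring gene Amz1, which overlaps it and whose counts summed to 1055 in shG0s2 and 828 in shRgs16, against 211 in shLacZ. The strand setting of the counting is not given, so reads of such overlapping pairs cannot be told apart.

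Gnb1 had the largest rise of the 10 genes in each knockdown. It was at 113, 110.3, 116 and 117 CPM in the shG0s2 samples and 100.4, 96.5, 88.9 and 99.5 CPM in the shRgs16 samples, against 55.8, 50.8, 58.2 and 51.2 CPM in the shLacZ samples. All shG0s2 samples were above all shRgs16 samples, and those above all controls. The fold change was 2.12 in shG0s2 (log2 1.09, SE 0.0591, edgeR adjusted p = 5.17e-08) and 1.78 in shRgs16 (log2 0.83, SE 0.0634, edgeR adjusted p = 1.95e-06). Both calls held in all 18 alternatives, with log2 values of at least 1.063 and 0.801. Gnb2, the beta subunit with the higher TPM in all 3 groups, held 91.6 to 100.7 CPM in shG0s2 and 93.5 to 96.0 CPM in shRgs16, against 89.9 to 93.6 CPM in shLacZ, and was called in neither. Its differences were 0.08 (edgeR adjusted p = 0.178) and 0.05 (edgeR adjusted p = 0.392) under TMM, and both were called with library size alone (0.57 and 0.35).

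Markers of macrophages, T and NK cells, and stellate cells and fibroblasts were mostly higher in both knockdowns, as Gnb1 and Gnai2 were. Those of endothelium, and of B cells, neutrophils and cholangiocytes (given at the end), were mostly not called under TMM. Of the macrophage markers, 13 of 15 tested were higher and 0 lower in shG0s2, and 12 of 14 were higher and 0 lower in shRgs16. They summed to 1588 to 1869 CPM in shG0s2 and 1468 to 1688 CPM in shRgs16, against 1024 to 1133 CPM in shLacZ. Clec4f, which marks resident Kupffer cells, was not called under TMM (log2 −0.06 and 0.19) and was called higher in both with library size alone (0.43 and 0.48). Adgre1, the gene of the F4/80 antigen, was called higher under both scalings (0.85 and 0.55 under TMM). T and NK cell markers were higher for 11 of 14 in shG0s2 and 12 of 14 in shRgs16, with sums of 67.0 to 75.6 CPM and 60.3 to 83.9 CPM, against 17.5 to 45.6 CPM in shLacZ. Stellate cell and fibroblast markers were higher for 14 of 14 in shG0s2. In shRgs16 they were higher for 9 and lower for 1 of 14. Their sums were 1298 to 1594 CPM in shG0s2 and 538 to 964 CPM in shRgs16, against 324 to 421 CPM in shLacZ. Endothelial markers were higher for 2 and lower for 3 of 13 in shG0s2, and higher for 3 of 13 in shRgs16. These counts stand beside 31.3% higher and 29.2% lower over all genes in shG0s2, and 24.6% and 24.5% in shRgs16. With library size alone, where 64.5% and 50.1% of all genes were higher, the markers called higher were 14 of 15 and 14 of 14 for macrophages, 12 and 13 of 14 for T and NK cells, 14 and 11 of 14 for stellate cells and fibroblasts, and 9 and 10 of 13 for endothelium. One endothelial marker was then lower in shG0s2. No marker was at 0 in any group, and the part of these cells in the Gnb1 and Gnai2 values was not tested.

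Gnb1 and Gcgr, the genes with the largest rise and the largest fall, are shown with the 250 bases before their starts, from the RefSeq promoter table (GRCm38.p6). The Gnb1 window is chr4:155491111-155491360 and the Gcgr window chr11:120530477-120530726, both on the plus strand, and capitals mark the core of the cAMP response element, TGACG, or its reverse complement CGTCA.
Gnb1: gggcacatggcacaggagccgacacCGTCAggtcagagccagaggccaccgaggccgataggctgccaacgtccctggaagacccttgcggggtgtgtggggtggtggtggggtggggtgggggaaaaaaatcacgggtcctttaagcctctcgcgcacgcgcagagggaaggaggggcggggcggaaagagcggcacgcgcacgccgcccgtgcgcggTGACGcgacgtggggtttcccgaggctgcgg
Gcgr: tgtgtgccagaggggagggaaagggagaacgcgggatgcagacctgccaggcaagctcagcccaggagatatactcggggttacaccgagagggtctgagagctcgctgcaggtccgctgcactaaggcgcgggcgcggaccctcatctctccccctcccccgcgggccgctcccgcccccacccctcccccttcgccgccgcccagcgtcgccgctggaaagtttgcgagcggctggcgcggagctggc
The core occurred at 2 places in the Gnb1 window, whose first bases lie 225 and 31 bases before the start, and at none in the Gcgr window. It is short and was found on either strand in 17.8% of the 32851 promoter windows of the same length. The full element TGACGTCA, which contains the core on both strands, was in 1.55% of all windows and in none of the windows of these genes. A GC box (GGGCGG or CCGCCC) was found 3 times in the Gnb1 window and 2 times in the Gcgr window, and in 32.7% of all windows at least once. Of the 10 genes, 9 had an entry in the promoter table. Gnai2 had none. These matches describe letters, not binding.

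**Figure D3:**
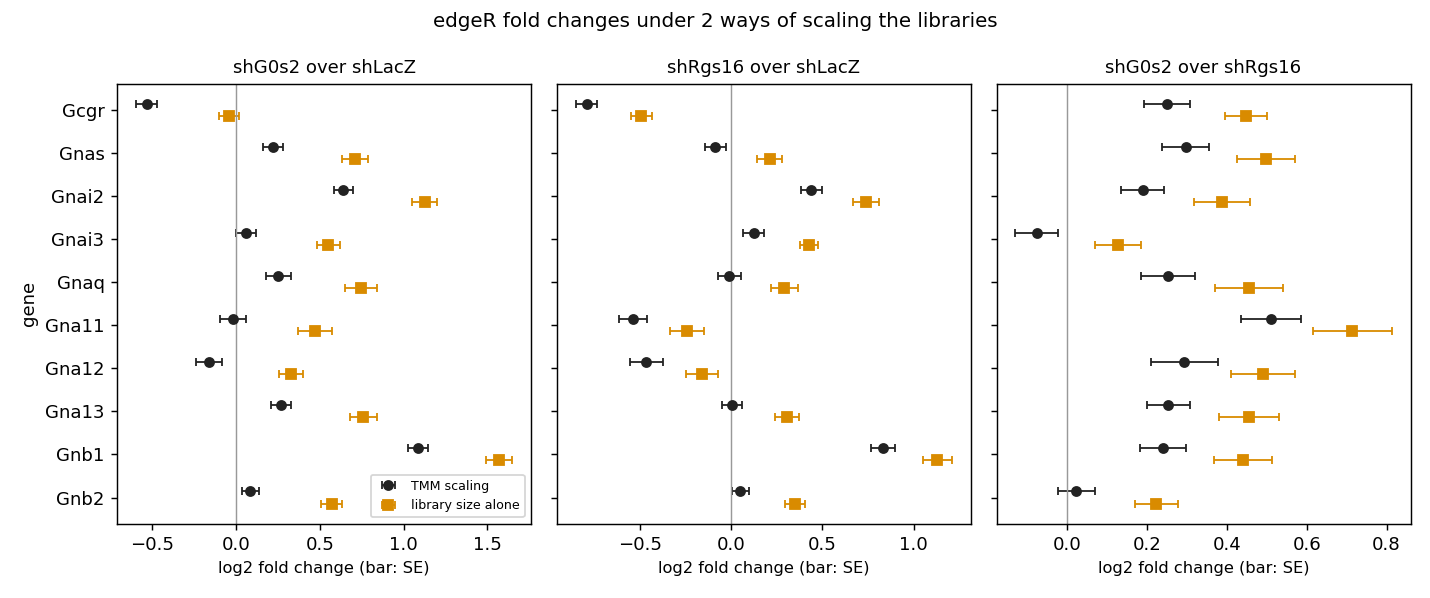
log2 fold change with its SE (edgeR) for each gene in the 3 comparisons, under TMM scaling (circles) and library size alone (squares). Library size alone moves every gene to the right, and Gnb1 and Gnai2 stay above 0 over shLacZ under both, while Gcgr in shG0s2 moves to about 0.

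Ratios between genes of the same sample do not depend on the library total, and 7 were compared between groups with 2-sided exact permutation tests. With 4 samples against 4 the smallest p is 0.0286, and adjusted over the 21 tests that becomes 0.0353 only because most of the tests reached it. Several ratios share genes and the comparisons share samples, so these tests do not stand alone. Receptor transcript per Gnas transcript (Gcgr/Gnas, from TPM) was 0.284 ± 0.0209 in shG0s2 and 0.293 ± 0.00789 in shRgs16, against 0.488 ± 0.0426 in shLacZ (SD, n = 4 each). Both knockdowns lay wholly below shLacZ (exact adjusted p = 0.0353 for each). The ratio has Gnas below the line, which was itself called higher in shG0s2.

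The makeup of the alpha and beta pools differed as well. Gnb1/Gnb2 was 0.544 ± 0.0192 in shG0s2 and 0.414 ± 0.0409 in shRgs16, against 0.251 ± 0.0391 in shLacZ, so that Gnb1 made up 35.2% and 29.2% of the Gnb1 and Gnb2 transcripts, against 20.02% in shLacZ. Gnai2/Gnai3 was 2.597 ± 0.132 in shG0s2 and 2.16 ± 0.151 in shRgs16, against 1.74 ± 0.203 in shLacZ. All 4 of these comparisons with shLacZ had groups that did not overlap (exact adjusted p = 0.0353). Inhibitory subunits made up 26.0% ± 0.421 of the alpha TPM in shG0s2 and 28.9% ± 1.057 in shRgs16, against 22.4% ± 0.710 in shLacZ. The stimulatory to inhibitory ratio Gnas/(Gnai2 + Gnai3) was 2.15 ± 0.0574 in shG0s2 and 1.88 ± 0.105 in shRgs16, against 2.51 ± 0.113 in shLacZ (exact adjusted p = 0.0353 for each).

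Gnaq/Gna11 was 0.298 ± 0.0197 in shG0s2 and 0.360 ± 0.0313 in shRgs16, against 0.235 ± 0.00802 in shLacZ (exact adjusted p = 0.0353 for each). Gna12/Gna13 was 3.39 ± 0.338 in shG0s2 and 3.59 ± 0.379 in shRgs16, against 4.62 ± 0.553 in shLacZ (exact adjusted p = 0.0353 for each). The second of these was lost when 1 TPM was added to both genes (exact adjusted p = 0.0706). The ratio of all alpha to both beta transcripts was 3.44 ± 0.202 in shG0s2, which overlapped shLacZ at 3.64 ± 0.129 (exact adjusted p = 0.189). It was 3.16 ± 0.151 in shRgs16, below all shLacZ samples (exact adjusted p = 0.0353). Within the alpha TPM, Gnas had a share of 56.0% in shG0s2 and 54.3% in shRgs16, against 56.2% in shLacZ, and G12/13 subunits 11.7% and 11.2%, against 14.5% in shLacZ.

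**Figure D4:**
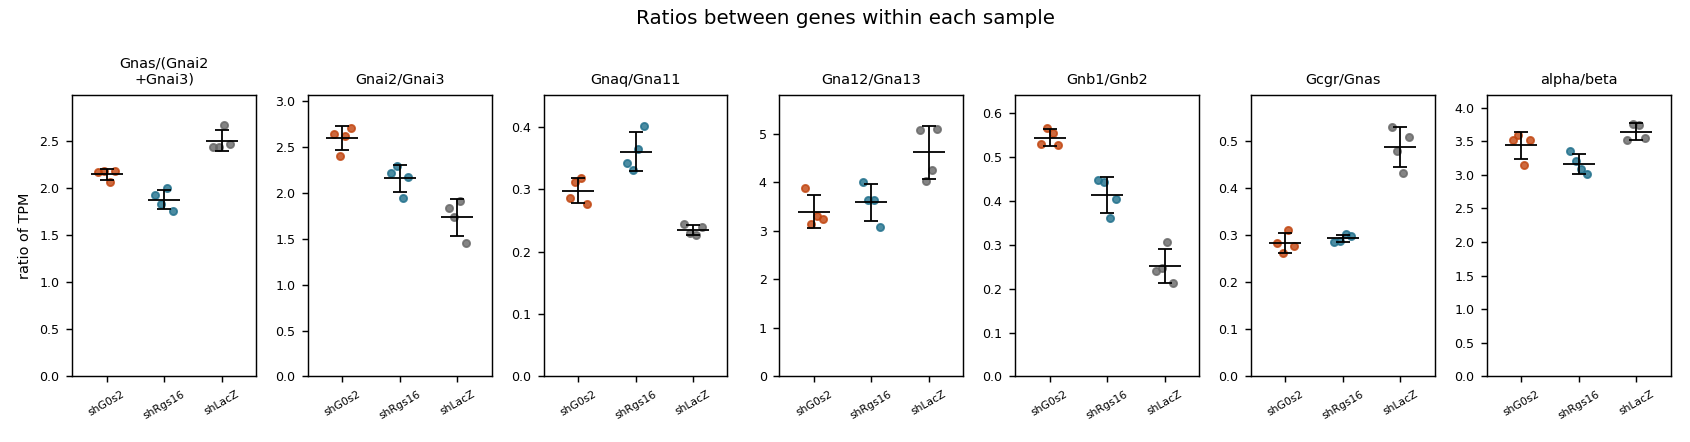
Ratio of TPM between genes within each sample (points), with group mean and SD (black bars), shG0s2 and shRgs16 left of shLacZ. Gnb1/Gnb2, Gnai2/Gnai3 and Gnaq/Gna11 lie above shLacZ in both knockdowns, and Gcgr/Gnas and Gnas/(Gnai2+Gnai3) lie below.

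Set against each other, the knockdowns differed in 8 of the 10 genes. All 8 were higher in shG0s2 than in shRgs16 and 0 were lower, where 41.4% of the 16018 genes tested were called, 21% higher and 20.5% lower. With library size alone, 9 were higher and 0 lower, where 37.8% of all genes were higher and 9.81% lower. Gna11 differed most (log2 0.51, SE 0.0754, edgeR adjusted p = 6.69e-05), followed by Gnas (0.30, SE 0.0587, edgeR adjusted p = 0.000837). Gna12, Gna13, Gnaq, Gcgr and Gnb1 had log2 differences of 0.24 to 0.29, and Gnai2 one of 0.19 (edgeR adjusted p = 0.0123). Gnai3 (−0.08, edgeR adjusted p = 0.272) and Gnb2 (0.02, edgeR adjusted p = 0.727) did not pass. Gnas/(Gnai2 + Gnai3), Gnai2/Gnai3 and Gnb1/Gnb2 were higher in shG0s2 and Gnaq/Gna11 was lower (exact adjusted p = 0.0353 for each). From counts, without the length correction of TPM, the Gnb1/Gnb2 difference ran the same way but was smaller. Gcgr/Gnas did not differ beyond the spread (log2 difference −0.05, SE 0.0558, exact adjusted p = 0.45).

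Estimated counts divided by TPM give the transcript length that the authors' quantification implied for each gene, here relative to the shLacZ mean. For Gnb1 it was 0.959 ± 0.0412 in shG0s2 and 1.08 ± 0.0274 in shRgs16, against 0.999 ± 0.0637 in shLacZ. For Gna13 it was 0.991 ± 0.0738 in shG0s2 and 1.08 ± 0.0167 in shRgs16, against 1.0001 ± 0.0188 in shLacZ. For Gnaq it was 0.911 ± 0.0283 in shG0s2 and 0.906 ± 0.119 in shRgs16, against 0.9995 ± 0.0494 in shLacZ. None of the 30 tests of this length passed adjustment (smallest exact adjusted p = 0.214). A single test cannot go below 0.0286 with 4 samples against 4, so groups that do not overlap, such as those of Gna13 in shRgs16 and shLacZ, could not pass unless most of the 30 tests did.

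Among the remaining subunits, gamma subunits were mostly higher. Of 6 tested, 5 were higher and 0 lower in shG0s2 (median log2 0.68), and 4 were higher and 0 lower in shRgs16 (median 0.52), beside 31.3% and 24.6% higher over all genes. Of the 6, 6 and 5 were higher with library size alone, beside 64.5% and 50.1%. Gng12 (log2 0.64 and 0.37), Gng2 (1.11 and 1.14) and Gngt2 (0.81 and 0.67) were each called higher in both. Of the other 7 alpha subunits tested, 2 were higher and 1 lower in shG0s2, and 1 was higher and 0 lower in shRgs16. Gnai1, another inhibitory subunit, was at 6.12 ± 1.61 CPM in shG0s2, against 1.88 ± 0.434 CPM in shLacZ, and in shRgs16 its log2 difference of 0.06 did not pass (edgeR adjusted p = 0.874). Gna15, a Gq-type subunit of blood cells, was higher in both (log2 1.37 and 0.84). Gnb4 was the called gene of the 2 other beta subunits tested, and was higher in both (0.66 and 0.78).

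Receptors were counted by class, beside 31.3% higher and 29.2% lower over all genes in shG0s2, and 24.6% and 24.5% in shRgs16. Gi-coupled receptors were higher for 8 and lower for 1 of 13 tested in shG0s2, and higher for 7 and lower for 1 of 13 in shRgs16. Their examples are Ccr2, the chemokine receptor of monocytes (log2 1.46 and 1.31), and P2ry14, a receptor for UDP-sugars (1.71 and 1.41). G12/13-coupled receptors were higher for 7 and lower for 0 of 10 in shG0s2, and higher for 6 and lower for 1 of 9 in shRgs16, among them the lysophosphatidic acid receptor Lpar2 (1.28 and 0.93). The Gq-coupled receptors of hormones were mixed, with 4 higher and 3 lower of 9 in shG0s2 and 3 higher and 4 lower of 9 in shRgs16. Adra1b, the main alpha-1 adrenergic receptor of hepatocytes, was at 24.6 ± 3.24 CPM in shG0s2 and 31.0 ± 3.24 CPM in shRgs16, against 48.5 ± 5.01 CPM in shLacZ. The endothelin receptor gene Ednrb was higher in both (1.31 and 0.65). Gs-coupled receptors and partners other than Gcgr were higher for 5 and lower for 2 of 12 in shG0s2, and higher for 5 and lower for 3 of 13 in shRgs16. Among the higher ones were Glp1r in shG0s2 (1.86, at 2.25 ± 0.453 CPM) and Ramp2 in shRgs16 (0.65). Adrb3, a beta adrenergic receptor, was lower in shG0s2 (−1.06) and had −0.21 in shRgs16 (edgeR adjusted p = 0.161). Vipr1, a receptor for vasoactive intestinal peptide, was lower in both (−0.83 and −1.09). Scaled by library size alone, 12 and 10 of 13 Gi-coupled receptors, 9 of 10 and 8 of 9 for G12/13, 5 and 4 of 9 for Gq, and 9 of 12 and 7 of 13 for Gs were called higher. These counts stand beside 64.5% and 50.1% of all genes higher under that scaling. The Gq counts lay below those shares in both knockdowns, and the Gs count in shRgs16 lay near its share.

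Downstream of the receptors, adenylyl cyclases were higher for 4 and lower for 1 of 7 in shG0s2, and higher for 4 and lower for 2 of 7 in shRgs16. Adcy7 was higher in both (log2 1.20 and 0.99), and Adcy9 was at 23.7 ± 2.203 CPM in shG0s2, against 50.3 ± 6.85 CPM in shLacZ. Adcy9 was also lower in shRgs16 (−0.47), a call lost with library size alone (−0.17). Phosphodiesterases that degrade cyclic AMP were higher for 6 and lower for 2 of 15 in shG0s2, and higher for 4 and lower for 0 of 15 in shRgs16, with Pde1b higher in both (2.04 and 0.998). Genes of protein kinase A and Epac were higher for 4 and lower for 3 of 11 in shG0s2, and higher for 3 and lower for 1 of 11 in shRgs16. The PKA regulatory subunit Prkar2a was lower in both (−0.54 and −0.19), calls lost with library size alone (−0.05 and 0.11). Pkib was higher in shG0s2 (1.11), and Pkia (1.08) and Prkar1a (0.30) were higher in shRgs16. CREB and its coactivators were higher for 3 and lower for 2 of 11 in shG0s2, and higher for 1 and lower for 1 of 11 in shRgs16, below the shares over all genes in each direction (31.3% and 29.2%, and 24.6% and 24.5%). The PKA and Epac counts lie near those shares in shG0s2. Genes called higher with library size alone were 5 of 7 in each for cyclases, 11 and 14 of 15 for phosphodiesterases, 9 and 6 of 11 for PKA and Epac, and 10 and 9 of 11 for CREB. Of all genes 64.5% in shG0s2 and 50.1% in shRgs16 were then higher. The cyclase count in shG0s2 and the PKA and Epac count in shRgs16 lay near those shares. Crtc2, the CREB coactivator of the glucagon response, was at 28.8 ± 1.44 CPM in shG0s2, against 45.9 ± 1.83 CPM in shLacZ. In shRgs16 the Crtc2 difference of −0.09 did not pass (edgeR adjusted p = 0.257), and with library size alone Crtc2 was called higher there (0.21). Sik1, a kinase that CREB induces, was at 52.5 ± 2.82 CPM in shRgs16, against 24.4 ± 2.48 CPM in shLacZ, and was higher in shG0s2 as well (log2 0.36).

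Genes that respond to glucagon or cyclic AMP in liver differed between the knockdowns. Of 17 tested, 3 were higher and 9 lower in shG0s2 (median log2 −0.65), and 4 were higher and 3 lower in shRgs16 (median −0.02). Over all genes 31.3% were higher and 29.2% lower in shG0s2, and 24.6% and 24.5% in shRgs16. Directly compared, 4 of the 17 were higher and 10 lower in shG0s2 than in shRgs16 (median −0.69, against 0.01 for all genes). In that comparison 21% of all genes were higher and 20.5% lower. Hepatocyte markers moved the same way there, with 1 higher and 11 lower of 15 (median −0.69). Whether the glucagon genes differ apart from hepatocyte genes as a whole was not tested. With library size alone the counts over shLacZ were 5 higher and 7 lower in shG0s2, and 6 and 0 in shRgs16. All genes then had 64.5% higher and 8.01% lower in shG0s2, and 50.1% and 8.35% in shRgs16. Pfkfb1, which encodes the bifunctional enzyme that sets fructose 2,6-bisphosphate, was at 27.8 ± 5.39 CPM in shG0s2, against 69.8 ± 2.94 CPM in shLacZ, and its log2 difference in shRgs16 was 0.00. The gluconeogenic genes Pck1 and G6pc, named here after their values were seen, had log2 fold changes of −0.69 and −0.79 in shG0s2 (edgeR adjusted p = 0.00107 and 0.000446). In shRgs16 they had −0.02 and −0.12 and did not pass (edgeR adjusted p = 0.863 and 0.326). The Pck1 call in shG0s2 was lost with library size alone (−0.21, edgeR adjusted p = 0.0923). The nuclear receptor gene Nr4a2 was higher in both (1.99 and 1.04). Nr4a1 was higher in shRgs16 (0.69) and had 0.20 in shG0s2 (edgeR adjusted p = 0.352).

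On the Gq and G12/13 arms, phospholipase C beta and IP3 receptor genes were higher for 3 and lower for 2 of 7 in shG0s2, and higher for 2 and lower for 1 of 7 in shRgs16. Itpr2, the IP3 receptor that predominates in hepatocytes, was at 31.9 ± 3.66 CPM in shG0s2, against 62.3 ± 6.72 CPM in shLacZ. In shRgs16 its log2 difference of 0.14 did not pass (edgeR adjusted p = 0.29). Itpr3 was higher in both (log2 1.11 and 0.83). Effectors of G12/13 were higher for 3 and lower for 2 of 8 in shG0s2, and higher for 2 and lower for 1 of 8 in shRgs16. Over all genes 31.3% were higher and 29.2% lower in shG0s2, and 24.6% and 24.5% in shRgs16. With library size alone the genes called higher were 5 and 6 of 7, and 6 and 7 of 8, beside 64.5% and 50.1% of all genes.

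Receptor kinases and arrestins, which switch off activated receptors, were higher for 6 and lower for 1 of 7 in shG0s2 (median log2 0.66), and higher for 4 and lower for 0 of 7 in shRgs16 (median 0.35), beside 31.3% and 24.6% higher over all genes. The arrestin gene Arrb2 was at 33.7 ± 1.21 CPM in shG0s2 and 34.6 ± 0.686 CPM in shRgs16, against 21.4 ± 1.71 CPM in shLacZ. RGS genes were higher for 8 and lower for 1 of 12 in shG0s2, and higher for 5 and lower for 3 of 10 in shRgs16. Rgs16 is among the lower ones in both, as the target of the hairpin in shRgs16. Rgs2, a regulator of Gq, was at 22.0 ± 1.064 CPM in shG0s2 and 16.4 ± 0.740 CPM in shRgs16, against 9.09 ± 1.48 CPM in shLacZ. Chaperones and modulators of alpha subunits were higher for 5 and lower for 2 of 8 in each knockdown. Ric8a, a chaperone of several alpha subunits, was lower in both under TMM (−0.25 and −0.41). It was called higher in shG0s2 with library size alone (0.24) and not called in shRgs16 (−0.11, edgeR adjusted p = 0.167). Under that scaling the genes called higher were 6 and 5 of 7 for kinases and arrestins, 10 of 12 and 7 of 10 for RGS genes, and 8 and 5 of 8 for chaperones, beside 64.5% and 50.1% of all genes.

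**Figure D5:**
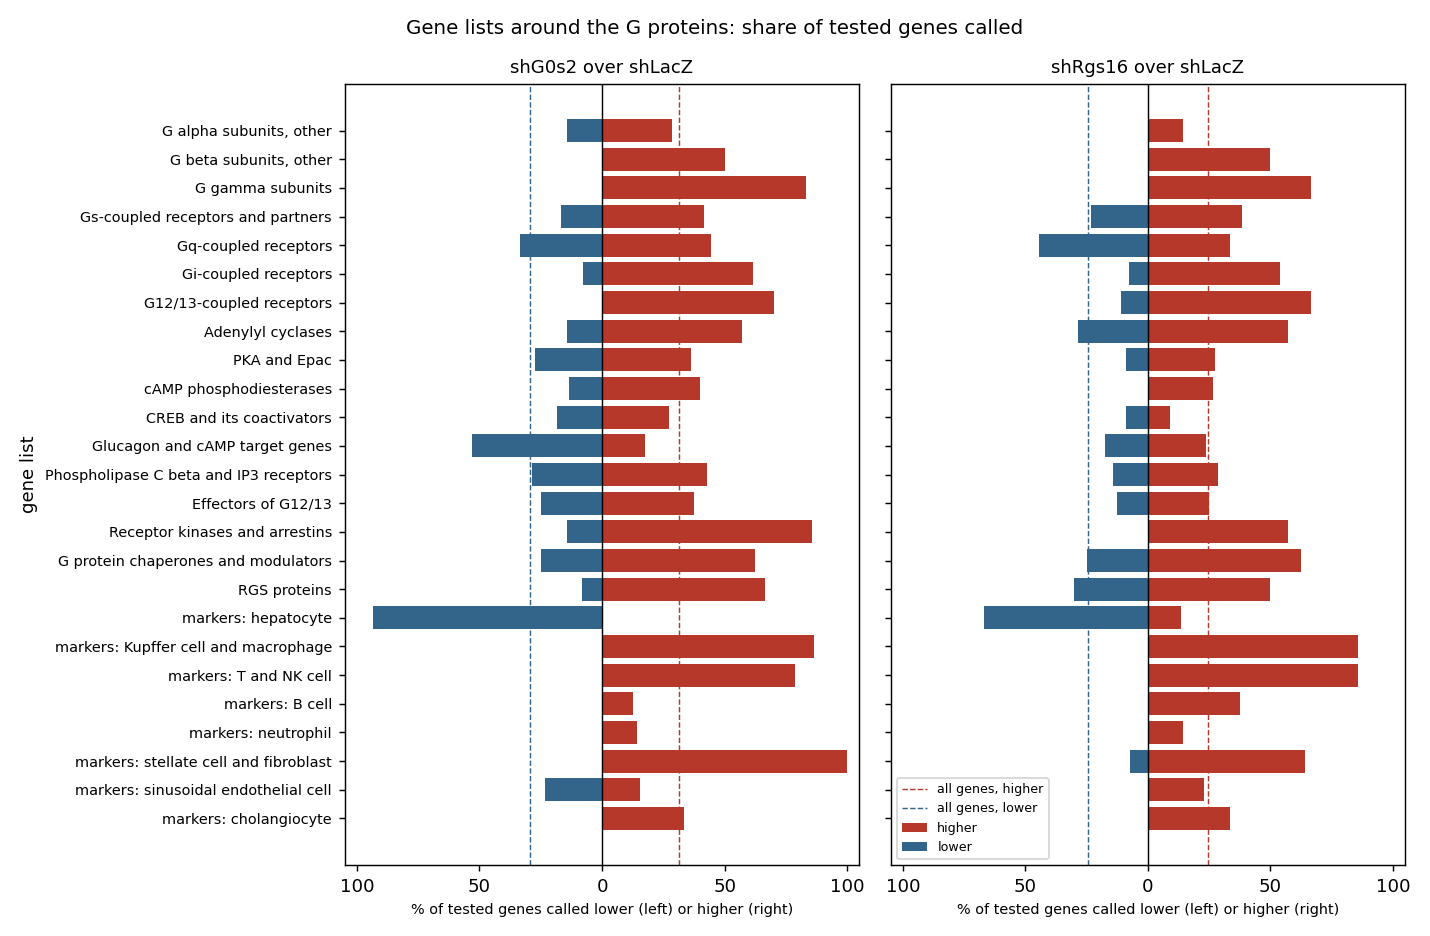
Share of tested genes called higher (red, right) or lower (blue, left) in each gene list, shG0s2 over shLacZ and shRgs16 over shLacZ (edgeR, adjusted p under 0.05). Dashed lines give the shares over all genes, 31.3% higher and 29.2% lower in shG0s2, and 24.6% and 24.5% in shRgs16.

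The genes whose profile over the 12 samples was most like that of Gcgr, among 12419 genes, were Mbd6, Ece1 and Ipo8. Likeness was the root mean square difference of centred log2 CPM, which was 0.0504, 0.0620 and 0.0630 for these. Ece1, a gene of an endothelin-converting enzyme, was at 156 ± 9.03 CPM in shG0s2 and 124 ± 7.60 CPM in shRgs16, against 225 ± 12.1 CPM in shLacZ. The profiles nearest to Gnb1 were Tpm1 (0.0644), Plekha2 (0.0675) and Mgat4a (0.0765). Tpm1, which encodes a tropomyosin, was at 100.7 ± 5.46 CPM in shG0s2 and 81.7 ± 6.57 CPM in shRgs16, against 45.6 ± 3.09 CPM in shLacZ.

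In the authors' deposited table, Gnb1 had a log2 fold change of 1.07 in shG0s2 and 0.83 in shRgs16, and Gcgr one of −0.55 and −0.80. These signs run the same way as knockdown over shLacZ here. In the authors' deposited table Gnb1 in shG0s2 was the 1 member marked significant, and no gene marked so there had an absolute log2 fold change under 1.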

How the data were processed

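The authors deposited 1 table per knockdown with its shLacZ samples. Per the file headers these hold estimated counts per gene and sample, and 5789 to 6625 values a sample were not whole. The deposited tables also hold TPM per sample, and, for each knockdown, the authors' fold (a ratio), log2 fold change, p-value and padjust. Tools named in the submitters' processing notes are fastp 0.19.5, Bowtie2 2.2.9, SAMtools 1.9, GATK 3.8 and DESeq2, without their roles. Genome build, annotation and strand setting of the authors: not given in the sources used here. The shLacZ values were identical in both tables (0 differences in 8 columns), so the 12 samples were joined. Coordinates and transcripts come from GENCODE for GRCm38, which held 55450 of the 55536 gene identifiers.

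Counts were rounded, filtered with filterByExpr, scaled by TMM and tested with edgeR 4.0.16 (robust quasi-likelihood test, R 4.3.3) with Benjamini-Hochberg adjustment over all genes and a threshold of 0.05. Each knockdown was compared with shLacZ in its 8 samples, and the knockdowns with each other in all 12. CPM values use TMM over all 12 samples. Alternatives were relative log expression scaling, library size alone, library size without the 22 Mup genes, no filter, 1 CPM in 4 samples, DESeq2 1.42.0, limma-voom and limma 3.58.1 on log2(TPM + 1), a replicate block, other samples in the fit, and each sample left out. The edgeR fits were tested on counts simulated with known changes, for shG0s2 against shLacZ (15592 genes) and shRgs16 against shLacZ (15324 genes). Of 100 genes changed by 1 on the log2 scale, 98 and 100 were recovered, and of 100 changed by 0.5, 32 and 39. False calls numbered 13 and 11, a larger share of all calls than the threshold of 0.05. Every gene was simulated with the same fixed spread between samples, which was not estimated from these data. Recovery at the spread of these samples, or where as many genes differ as were called in them, was not tested. Total counts were 18458222 to 27170419 a sample. Within groups no 2 samples matched within counting noise (chi-square over its degrees of freedom, 12.12 to 47.26).

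The 10 genes and the 17 pathway and 8 marker lists were chosen with earlier results of these data known. Of each pathway list up to 2 called genes with the smallest p were eligible to be named, with a mean of at least 1 CPM, of each marker list its first 2 tested genes, and for Gcgr and Gnb1 the 3 genes with the most similar profile. No table of protein sequences was used here.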

Additional observations from a re-analysis of the deposited data

Results flagged for a closer look

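Gna13 in shRgs16 replicate 3 was at 46.0 CPM, apart from the other 3 shRgs16 samples at 49.2 to 49.8 CPM. It was the 1 value of 30 groups of 4 that Dixon's test set apart at the 95% level, and chance alone would set apart about 1 group in 20. The log2 fold change of Gna13 over shLacZ in shRgs16 was 0.00 under TMM, and Gna13 was called higher with library size alone (0.30, edgeR adjusted p = 0.00174).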

How the results depend on the processing

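Relative log expression scaling, both filters, DESeq2, limma-voom and the other choice of samples left all 12 counts of calls within 1.5 times and every member's call in place. Counts moved by more with 3 other alternatives. With library size alone, 10061 genes were higher and 1249 lower in shG0s2 (members 9 and 0), 7683 and 1280 in shRgs16 (members 7 and 2), and 6052 and 1571 between shG0s2 and shRgs16. With library size without the Mup genes the counts were 8367 and 1829 (members 9 and 1), 5741 and 2007 (members 5 and 3), and 5797 and 1657. With limma on log2(TPM + 1), which changes the test, the filter and the length correction along with the scaling, they were 10369 and 664 (members 10 and 0), 7874 and 702 (members 7 and 1), and 6156 and 1083. These alternatives do not centre the bulk of genes, and which of them is nearer to RNA per cell was not tested.

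Signs turned, with library size alone, library size without Mup genes and log2(TPM + 1), for Gna11 in shG0s2 (0.47, 0.33, 0.72), Gna12 in shG0s2 (0.33, 0.19, 0.53), Gnas in shRgs16 (0.21, 0.0846, 0.35), Gnaq in shRgs16 (0.29, 0.16, 0.49) and Gnai3 between the knockdowns (0.13, 0.11, 0.20). Gcgr in shG0s2 turned on log2(TPM + 1) alone (0.16). Gna13 in shRgs16 was −0.0027 without a filter, and was called higher under the 3 alternatives named first (0.30, 0.18 and 0.31). The Gna12/Gna13 log2 ratio between the knockdowns was 0.0449 from counts. None of these was called under TMM except Gcgr in shG0s2. With library size alone the turned values of Gna11, Gna12, Gnas and Gnaq were called higher, and that of Gnai3 was not.

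Without each sample in turn, the members called were 5 and 1 in shG0s2, 2 to 3 and 3 in shRgs16, and 8 and 0 between the knockdowns. Genes near 0 changed sign: Gna11 in shG0s2 (−0.0600 to 0.0576), Gna13 in shRgs16 (−0.0166 to 0.0293), Gnaq in shRgs16 (−0.0408 to 0.0157) and Gnb2 between the knockdowns (−0.0074 to 0.0395).

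Samples with the same replicate number did not deviate together (correlations of −0.074 to 0.136), so the numbers were not taken to pair samples. With a replicate block 4836 genes were higher and 4463 lower in shG0s2, 3566 and 3538 in shRgs16, and 3292 and 3242 between the knockdowns, and the member counts were the same. The paired sign-flip test of a ratio cannot go below 0.125 with 4 pairs.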

Other observations

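Transcripts that run opposite to these genes gave further values. The strand setting of the counting is not given, so their reads cannot be told apart from those of the genes they overlap. Nespas, the antisense transcript of the imprinted Gnas locus, had summed counts of 38 in shG0s2 and 13 in shRgs16, against 3 in shLacZ, too few to pass the filter on low counts. Gm11789, annotated antisense to Gcgr, was lower in shRgs16 (log2 −1.29, SE 0.0995, edgeR adjusted p = 2.15e-06). In shG0s2 it had a log2 fold change of −0.34 (edgeR adjusted p = 0.0284), which was 0.16 and not called with library size alone. Its summed counts were 923 in shG0s2 and 473 in shRgs16, against 938 in shLacZ. Amz1, which overlaps Gna12 on the opposite strand, was higher in shG0s2 (log2 2.01, SE 0.158, edgeR adjusted p = 6.39e-07) and in shRgs16 (1.67, SE 0.156, edgeR adjusted p = 7.22e-06). Gm11696, antisense to Gna13, passed in neither (0.17 and 0.12).

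B cell markers were higher for 1 of 8 in shG0s2 and 3 of 8 in shRgs16. Neutrophil markers were higher for 1 of 7 in each, and cholangiocyte markers for 2 of 6 in each. In these 3 lists 0 were lower. Over all genes 31.3% were higher in shG0s2 and 24.6% in shRgs16. With library size alone the markers called higher were 2 and 5 of 8, 5 and 2 of 7, and 5 and 3 of 6. Of all genes 64.5% and 50.1% were then higher.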
